A study of Mus musculus with 4 samples.

Results

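The genes of fibroblast growth factor (FGF) signalling were examined in KSP-positive and KSP-negative cells. They comprise the FGF ligands, their receptors, and the genes of feedback inhibitors and ETS transcription factors that FGF signalling switches on. Genes were taken by symbol from the probe sets assigned to a single gene, which gave 38 genes on 85 probe sets, of 18193 genes on the whole array. Etv1, a further ETS gene sought by name, was not analysed here.

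KSP-positive cells had been sorted with an antibody against the extracellular part of KSP, a cadherin of kidney epithelia, and KSP-negative cells were the other fraction of the same cultures. All 4 samples, 2 of each fraction, derive from CAG-GFP EB3, a GFP-expressing subline of the mouse ES cell line EB3 (strain 129/Ola) in which the CAG promoter drives GFP in every cell, and only GFP-positive cells were collected. The cultures had passed through embryoid bodies and had received Activin at 10 ng/mL for 18 days in either fraction. The fractions came from 2 independent experiments, and all cells go back to a single ES cell line, so that the spread between replicates covers these cultures and not other lines.

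The 4 arrays gave deposited median signals between 55.2 and 67.4. Signals were scaled to a common 75th percentile, a signal of 281, and a floor was set at a signal of 12.3, under which lay 16.8% to 22.9% of the probe sets of an array. Genes whose mean log2 signal exceeded 5.14 (a signal of 35.4) passed the filter on dim probe sets, and the brightest probe set stood for its gene. Cdh16, the gene of KSP, had signals of 50.6 and 32.6 in KSP-positive cells and 39.3 and 26.3 in KSP-negative cells, values that overlapped (adjusted p = 0.816 from limma). Of 9 kidney tubule genes on the array, Umod and Slc12a3 lay at the floor on all 4 arrays and of the 4 that passed the filter none passed the test in either direction (1 lower and 0 higher at an unadjusted p under 0.05 from limma).

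Secreted FGFs bind receptor tyrosine kinases together with heparan sulfate, and the activated receptor recruits adaptors that switch on Ras and the Erk kinases. Erk activity induces Sprouty and Spred proteins and the phosphatase Dusp6, which dampen the pathway, and the ETS factors Etv4 and Etv5, which carry it into the nucleus. In ES cells, Fgf4 made by the cells themselves promotes exit from self-renewal, Fgf5 marks the primed epiblast, and in the kidney FGFs act on nephron progenitors and on the ureteric bud.

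The ligands Fgf4 and Fgf5 and the ETS factor Etv5 were lower in KSP-positive cells, whereas no receptor and no feedback inhibitor passed the test. Fgf5 fell 6.75-fold and Etv5 fell 4.37-fold. Fgf4 was at or just above the floor in KSP-positive cells, so that the size of its fall depends on the floor, and its log2 difference was -5.75 with no floor and -3.45 when the floor was raised to the 40th percentile. Of the 38 genes, 24 passed the filter and 14 lay under it, and of the 24 tested, 3 fell and none rose at an adjusted p under 0.05 from limma, which left 21 that passed in neither direction. At an unadjusted p under 0.05, 5 were lower and 0 higher, and the methods' t-test called 0 in either direction after adjustment. Over all 12849 genes tested, 1.65% fell and 1.84% rose, 3.49% in all, and 8.72% were lower at an unadjusted p under 0.05. The fractions did not overlap for 7 genes that were lower (24.6% of all genes tested) and 4 that were higher (24.4%). Of these, 5 were more than 2-fold lower (7.26% of all genes tested) and none more than 2-fold higher (7.6%). The median log2 difference of the 24 genes was -0.07, against -0.03 over all genes tested, and over the 38 genes it was -0.21. Since Fgf4 and Fgf22 passed the filter through a single fraction only, these counts describe the genes and carry no weight as a set. Without KSP-negative replicate 2 only Fgf4 was called among these genes, and 52 of all genes fell, against 212 with every array. Without KSP-positive replicate 2, a single array stood for the KSP-positive cells. The log2 differences of Fgf15 and Dusp6 were then -2.18 and -1.95, against -1.90 and -1.10 with every array.

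**Figure D1:**
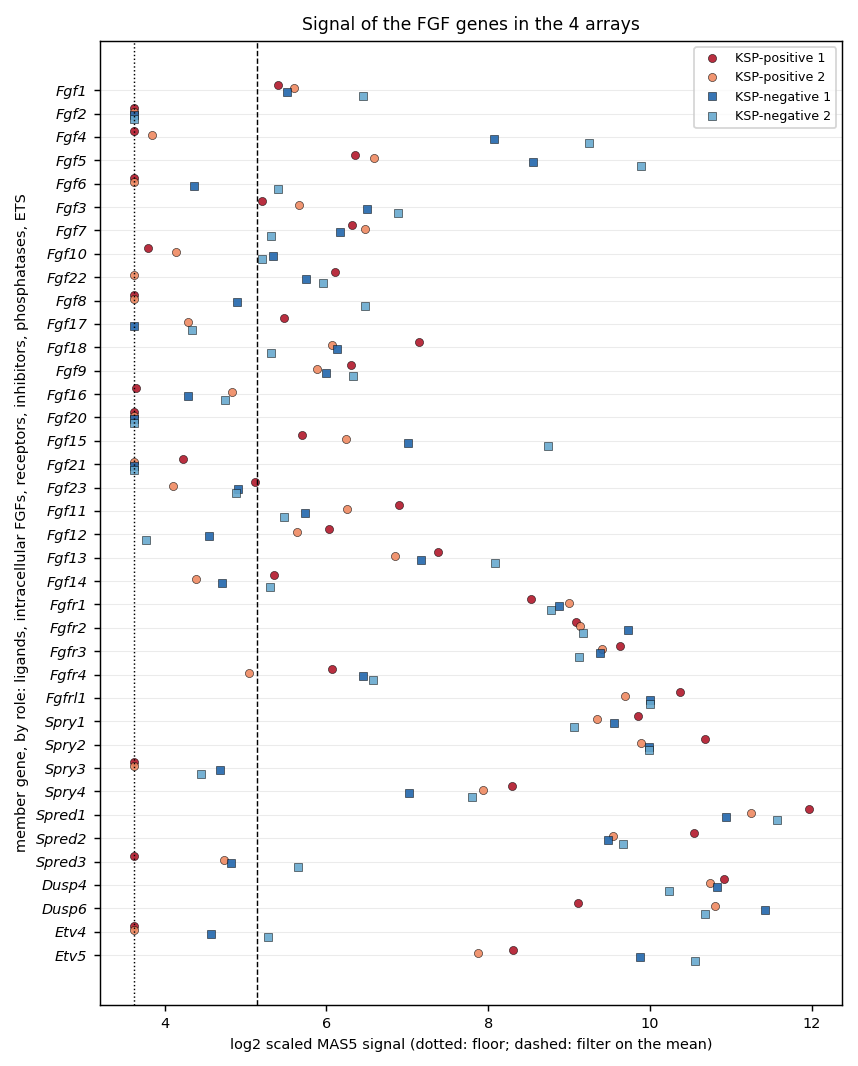
Log2 scaled signal (horizontal axis) of the 38 FGF genes (vertical axis, ordered by role) in 2 KSP-positive (circles) and 2 KSP-negative (squares) arrays, with the floor dotted and the filter on the mean dashed. Fgf4, Fgf5 and Etv5 lie to the right in both KSP-negative arrays, while the receptors Fgfr1, Fgfr2 and Fgfr3 lie close together in all 4; signals of different genes are not comparable.

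Fgf4, the ligand that ES cells secrete under the control of Oct4 and Sox2, had signals of 12.3 and 14.4 in KSP-positive cells and 269 and 609 in KSP-negative cells. The KSP-positive arrays thus lay at and just above the floor, and the fractions did not overlap. The log2 difference was -4.93 ± 0.51 (standard error), with a 95% confidence interval from -6.07 to -3.79 and an adjusted p of 0.00202 from limma. Since Fgf4 passed the filter through KSP-negative cells alone and KSP-positive cells gave no signal clearly over the floor, the size and its rank among other genes were not measured. The adjusted p was 0.00248 with no floor and 0.00558 with the raised floor. Leaving out KSP-negative replicate 1 gave -5.52, and leaving out KSP-negative replicate 2 gave -4.34 (adjusted p = 0.0156).

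Fgf5, a ligand of the same subfamily and a marker of the primed epiblast, had signals of 82.0 and 96.0 in KSP-positive cells and 378 and 949 in KSP-negative cells. Both KSP-positive arrays were low and close to each other, and the KSP-negative arrays were apart. The log2 difference was -2.75 (95% confidence interval -3.77 to -1.73, adjusted p = 0.0121 from limma). Leaving out KSP-negative replicate 1 gave -3.42, and leaving out KSP-negative replicate 2 gave -2.09 (adjusted p = 0.0895). Fgf6, the third ligand of this subfamily and known from skeletal muscle, lay under the filter, with both KSP-positive arrays at the floor against signals of 20.5 and 42.3 in KSP-negative cells.

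Etv5, an ETS factor of the ureteric bud tip and of spermatogonial stem cells, had signals of 316 and 236 in KSP-positive cells and 940 and 1511 in KSP-negative cells. The log2 difference was -2.13 (95% confidence interval -2.96 to -1.29, adjusted p = 0.0147 from limma). Leaving out KSP-negative replicate 2 gave an adjusted p of 0.0895, and with the mean of the probe sets of Etv5 the difference was -1.55 (adjusted p = 0.0563). Etv4, the related factor that acts with Etv5 in the ureteric bud, lay under the filter, and both of its KSP-positive arrays were at the floor against 23.7 and 38.8 in KSP-negative cells. Neither fraction of Etv4 had a mean over the filter, its other probe set was at the floor on all arrays but KSP-negative replicate 2, and it was not tested.

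**Figure D2:**
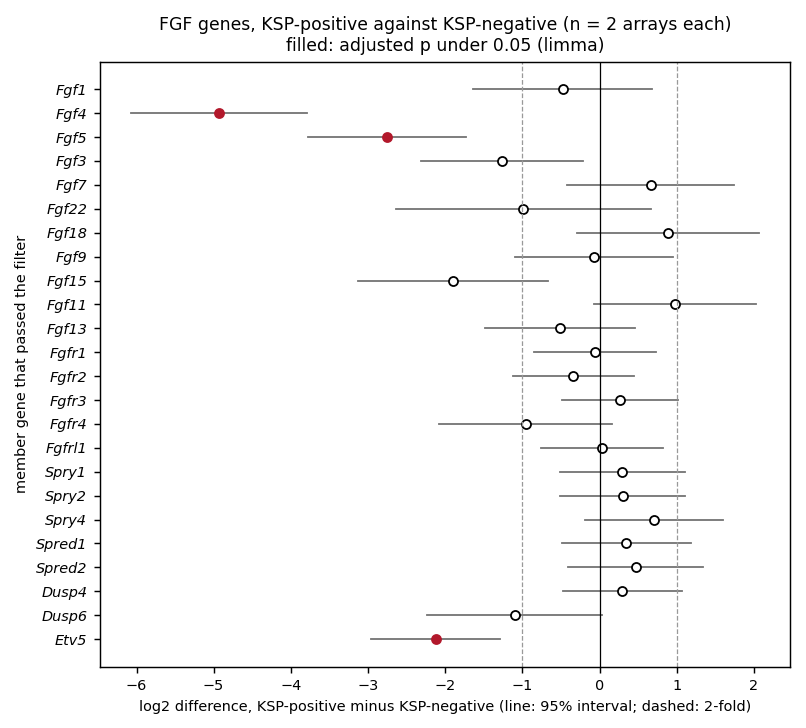
Log2 signal of KSP-positive minus that of KSP-negative cells (horizontal axis, 2 arrays per fraction) of the 24 FGF genes that passed the filter (vertical axis), with 95% intervals from limma and dashed lines at 2-fold. The filled points Fgf4, Fgf5 and Etv5 have an adjusted p under 0.05, and the intervals of the 5 receptors and of the Sprouty and Spred genes include 0.

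The promoters of the genes that fell are shown, with that of Fgf3, a neighbour of Fgf4 that was more than 2-fold lower without overlap. Fgf15, the other neighbour, was so too, but no promoter window was at hand for it. Each line gives 250 bases that end at the base before the outermost transcription start in RefSeq (GRCm38.p6), written 5′ to 3′ on the strand of the gene, and capitals mark the Sp1 site GGGCGG on either strand.
Fgf4, GRCm38.p6 chr7:144861136-144861385, + strand: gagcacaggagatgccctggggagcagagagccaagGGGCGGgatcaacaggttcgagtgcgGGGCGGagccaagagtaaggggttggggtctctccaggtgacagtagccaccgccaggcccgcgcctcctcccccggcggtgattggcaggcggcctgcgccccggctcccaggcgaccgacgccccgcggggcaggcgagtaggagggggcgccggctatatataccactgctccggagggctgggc
Fgf5, GRCm38.p6 chr5:98253934-98254183, + strand: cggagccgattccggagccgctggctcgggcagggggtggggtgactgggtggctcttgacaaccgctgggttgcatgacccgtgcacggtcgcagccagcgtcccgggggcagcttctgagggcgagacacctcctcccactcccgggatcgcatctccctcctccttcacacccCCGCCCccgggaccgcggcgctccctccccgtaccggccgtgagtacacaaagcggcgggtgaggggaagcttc
Etv5, GRCm38.p6 chr16:22439571-22439820, - strand: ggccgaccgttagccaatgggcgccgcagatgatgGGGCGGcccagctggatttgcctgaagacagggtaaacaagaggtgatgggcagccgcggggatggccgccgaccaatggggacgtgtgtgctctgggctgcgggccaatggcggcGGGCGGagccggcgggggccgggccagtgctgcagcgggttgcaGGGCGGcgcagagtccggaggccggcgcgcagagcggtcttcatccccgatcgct
Fgf3, GRCm38.p6 chr7:144838362-144838611, + strand: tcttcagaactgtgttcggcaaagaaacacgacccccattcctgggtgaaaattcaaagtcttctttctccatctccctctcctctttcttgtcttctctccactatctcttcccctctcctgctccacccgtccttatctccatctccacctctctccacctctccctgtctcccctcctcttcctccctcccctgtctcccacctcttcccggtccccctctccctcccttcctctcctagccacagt

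Of the 38 genes, 28 matched a promoter window, and for Etv5 the table holds 2. The Sp1 site occurred 2 times before Fgf4, 1 time before Fgf5 and 3 times before the outermost start of Etv5, and not before Fgf3. It was held by 32.7% of the 32851 windows of this length. Of the 28 genes, 19 had it in any of their windows, which is counted by gene and so is not comparable with the share of windows. The octamer ATGCAAAT (1.60% of windows), the ETS site CCGGAAGT (2.88%) and the TATA box TATAAA (12.4%), searched on both strands, were not in these 4 windows, and none of the 4 motifs contains another. The windows of Fgf4, Fgf5 and Etv5 had a GC content of 71.2%, 70.8% and 71.2%, and that of Fgf3 one of 55.2%. Only the exact letters of each motif were sought, so that the run tatatata in the window of Fgf4 did not count as a TATA box. A match is a run of letters and was not tested as a binding site.

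Fgf3, Fgf4 and Fgf15 lie next to each other on chromosome 7, with no other protein-coding gene between them in RefSeq, and each was lower in KSP-positive cells on both arrays. Fgf15, the mouse counterpart of human FGF19 and a hormone of the ileum, had signals of 52.0 and 76.0 in KSP-positive cells and 129 and 427 in KSP-negative cells. The fractions did not overlap, but the KSP-negative arrays were far apart, and the log2 difference of -1.90 did not pass the test (adjusted p = 0.0961 from limma). It passed with the deposited values left unscaled (adjusted p = 0.0141), with KSP-positive replicate 2 left out (0.0151) and with KSP-negative replicate 1 left out (0.0153, a difference of -2.76). With KSP-negative replicate 2 left out the difference of Fgf15 was -1.04 (adjusted p = 0.528).

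Fgf3, an FGF of the inner ear and the tail bud, had signals of 36.7 and 50.6 in KSP-positive cells and 90.7 and 118.5 in KSP-negative cells, with a log2 difference of -1.27 (adjusted p = 0.188 from limma). Beyond these 3 genes, the next protein-coding neighbours were the chloride channel gene Ano1 on the side of Fgf3 (log2 difference 1.34, adjusted p = 0.156) and LTO1 on the side of Fgf15 (-0.13, adjusted p = 0.893), which were looked up after the values of the 3 genes had been seen. Ano1 was higher without overlap, and the gene after LTO1, the cyclin gene Ccnd1, was lower without overlap (-1.14, adjusted p = 0.24). None of these neighbours passed the test in either direction.

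The other ligands were dim or did not differ beyond their spread. Fgf8, a ligand of the primitive streak and of the nephron progenitors, lay under the filter, with both KSP-positive arrays at the floor against signals of 29.9 and 89.1 in KSP-negative cells. It was at least 4.21-fold lower and was not tested. Fgf10, the mesenchymal ligand of Fgfr2 in the lung, limb and kidney, also lay under the filter, with signals of 13.8 and 17.7 in KSP-positive cells and 40.6 and 36.8 in KSP-negative cells.

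Fgf7, a mesenchymal ligand of epithelial cells, had signals of 79.7 and 89.3 in KSP-positive cells and 71.9 and 39.7 in KSP-negative cells (log2 difference 0.66, adjusted p = 0.532 from limma). Fgf18, a ligand of cartilage and bone, had 142 and 67.3 in KSP-positive cells and 70.1 and 39.9 in KSP-negative cells, and the fractions overlapped (adjusted p = 0.425). Fgf9, which with Fgf20 maintains nephron progenitors, had 78.7 and 58.8 in KSP-positive cells and 63.7 and 80.6 in KSP-negative cells (log2 difference -0.07, 95% confidence interval -1.10 to 0.95). Fgf2 and Fgf20 were at the floor on all 4 arrays, so that no level can be given for either fraction. Fgf1, which binds all FGF receptors, had 42.3 and 48.6 in KSP-positive cells and 45.8 and 87.4 in KSP-negative cells (log2 difference -0.48, adjusted p = 0.698). Fgf22, a ligand of synapse formation, had 68.9 and the floor in KSP-positive cells and 53.7 and 62.0 in KSP-negative cells, so that a single KSP-positive array set its log2 difference of -0.99 (adjusted p = 0.542). With that array, replicate 2, left out, the difference of Fgf22 was 0.26. Fgf16, Fgf17, Fgf21 and Fgf23 lay under the filter, with overlapping signals of at most 44.5. Of the 18 ligands, 9 passed the filter, and 4 of these were more than 2-fold lower and none more than 2-fold higher. Of all genes tested, 7.66% and 7.92% were so. Fgf4 and Fgf22 were among the 9 through KSP-negative cells alone, so that this count describes the ligands and carries no weight as a set.

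The intracellular FGFs are not secreted and bind sodium channels in neurons and heart cells. Fgf11 had signals of 119.5 and 76.5 in KSP-positive cells and 53.1 and 44.5 in KSP-negative cells, without overlap (log2 difference 0.98, adjusted p = 0.318 from limma). Fgf12 went the same way with 65.6 and 49.9 in KSP-positive cells and 23.4 and 13.6 in KSP-negative cells, but lay under the filter and was not tested. Fgf13 had 167 and 115 in KSP-positive cells and 144 and 273 in KSP-negative cells, with overlap (log2 difference -0.52, adjusted p = 0.595). Fgf14, under the filter, also overlapped between the fractions.

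The 5 receptor genes passed the filter and none passed the test (0 at an unadjusted p under 0.05 from limma). Fgfr1, the receptor of mesenchymal and progenitor cells, had signals of 371 and 512 in KSP-positive cells and 469 and 437 in KSP-negative cells. Its log2 difference was -0.06 (95% confidence interval -0.84 to 0.73), so that a difference of over 2-fold in either direction lay outside the interval. Fgfr3, which restrains growth of cartilage, had 791 and 682 in KSP-positive cells and 670 and 559 in KSP-negative cells (log2 difference 0.26, 95% confidence interval -0.49 to 1.02). Its fractions did not overlap, as 48.9% of all genes did not.

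Fgfr2, the receptor of the ureteric bud and of other epithelia, had signals of 544.5 and 562 in KSP-positive cells and 849 and 577 in KSP-negative cells (log2 difference -0.34, 95% confidence interval -1.13 to 0.45). The epithelial and the mesenchymal splice form of Fgfr2 were not told apart here. Fgfr4, the receptor through which Fgf15 acts in liver, had 66.9 and 32.9 in KSP-positive cells and 87.3 and 95.4 in KSP-negative cells, without overlap (log2 difference -0.96, adjusted p = 0.358 from limma). Fgfrl1, a receptor without a kinase domain that is needed for nephron formation in mice, had 1323 and 830 in KSP-positive cells and 1028 and 1022 in KSP-negative cells, with a log2 difference of 0.03 (95% confidence interval -0.76 to 0.82).

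The feedback inhibitors had log2 differences above 0 in the brightest probe sets of the 5 Sprouty and Spred genes that passed the filter, from 0.29 for Spry1 to 0.70 for Spry4, and none passed the test (0 at an unadjusted p under 0.05 from limma). Spry1, which restrains Ret signalling in the ureteric bud, had signals of 925 and 653 in KSP-positive cells and 753 and 535 in KSP-negative cells (95% confidence interval of the log2 difference -0.52 to 1.10). Spry4 had 313 and 245 in KSP-positive cells and 130 and 223 in KSP-negative cells, without overlap (adjusted p = 0.406). Spry2, which limits branching in the lung and nerve growth in the gut, had 1644 and 948 in KSP-positive cells and 1017 and 1014 in KSP-negative cells (log2 difference 0.30). KSP-positive replicate 1 was the highest array in the brightest probe sets of all 5 genes, the Raf inhibitors Spred1 and Spred2 included. Spred1 had 3995 and 2428 in KSP-positive cells and 1959 and 3056 in KSP-negative cells (0.35), and Spred2 had 1489 and 748 in KSP-positive cells and 718 and 813 in KSP-negative cells (0.47). Without KSP-positive replicate 1 the differences of Spry2, Spred1 and Spred2 were -0.10, -0.011 and -0.031. Spry3 and Spred3 lay under the filter, with Spry3 at the floor in both KSP-positive arrays against signals of 25.7 and 21.8 in KSP-negative cells. Spred3 had the floor and 26.6 in KSP-positive cells and 28.2 and 50.2 in KSP-negative cells.

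Dusp6, the Erk phosphatase whose RNA follows FGF signalling closely, had signals of 551 and 1783 in KSP-positive cells and 2751 and 1637 in KSP-negative cells. KSP-positive replicate 1 was low and replicate 2 lay among the KSP-negative arrays, so that the fractions overlapped and the log2 difference of -1.10 did not pass the test (95% confidence interval -2.23 to 0.04, adjusted p = 0.296 from limma). Leaving out KSP-positive replicate 1 gave -0.25, and leaving out KSP-positive replicate 2 gave -1.95 (adjusted p = 0.0144). Dusp4, a nuclear Erk and Jnk phosphatase, had 1936 and 1712 in KSP-positive cells and 1827 and 1208 in KSP-negative cells (log2 difference 0.29, 95% confidence interval -0.47 to 1.06).

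Probe sets of the same gene did not always give the same value. Of 14 genes with several probe sets that passed the filter, 8 had all of them on the same side of 0. For Fgf4 a second probe set, of the kind that can cross-hybridize, had a log2 difference of -4.92, and another had one of -0.79, with overlap. A further probe set of Fgf4, under the filter, had 0.50, with overlap. The other probe sets of Etv5 had differences of -1.42 and -1.11, and both were lower without overlap, though neither passed the test in a fit of every probe set (adjusted p = 0.214 and 0.329 from limma). Spry2 had 0.30 on its brightest probe set and -0.71 on the other, and Spry4 had 0.70 on its brightest and -0.24 and -0.32 on the others. The sign of these 2 inhibitors therefore depended on the probe set. So did that of Fgfr2, with -0.34 on its brightest probe set and 0.28 on the other over the filter. For Fgf7 the brightest had 0.66 and the other over the filter -7.5e-06. A second probe set of Fgf9 had a difference of -1.03 and one of Fgfr4 had -1.46 (adjusted p = 0.377 and 0.193).

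**Figure D3:**
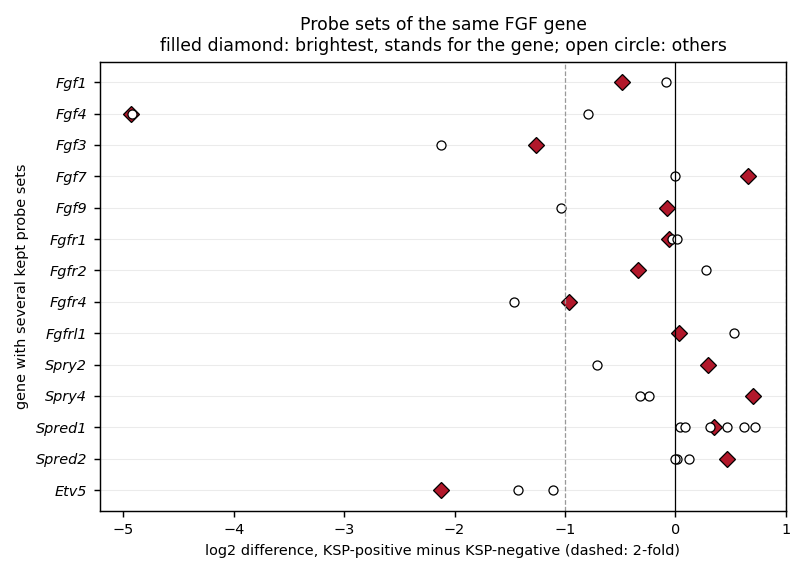
Log2 signal of KSP-positive minus that of KSP-negative cells (horizontal axis, 2 arrays per fraction) for each probe set over the filter of the 14 FGF genes that have several (vertical axis), with a filled diamond for the brightest. All probe sets of Etv5, Fgf3 and Fgfr4 lie below 0, and those of Fgfr2, Spry2 and Spry4 lie on both sides.

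Genes that fell are low in the KSP-positive arrays by selection, so that sharing these arrays with other genes that fell carries no weight. Markers of undifferentiated ES cells were read in the same arrays. Of 14 such markers, 13 fell, and their summed signal was 8101 and 8843 in KSP-positive cells and 17790 and 31160 in KSP-negative cells. None of the 14 was at the floor in both arrays of a fraction. Klf4, which did not pass the test (adjusted p = 0.611 from limma) and which many differentiated cells express, made up 6574 and 6979 of the sum in KSP-positive cells and 4967 and 5709 in KSP-negative cells. KSP-negative replicate 2 had the higher signal of the KSP-negative arrays for each of the 14 markers. The same held for each of the 5 FGF genes that were more than 2-fold lower without overlap (Fgf3, Fgf4, Fgf5, Fgf15 and Etv5). Among all FGF genes lower without overlap, it held for 6 of 7 over the filter and 4 of 6 under it. Fgfr2, Fgf10 and Spry3 went the other way. Over all genes tested, lower or not, 63.0% were higher in KSP-negative replicate 2. That share is not over genes chosen for being lower. A high KSP-negative array helps a gene to be chosen so, and Fgf4 passed the filter through KSP-negative cells alone. The order of the KSP-negative arrays in the chosen genes therefore carries no weight.

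Of 5 primitive streak genes 2 fell, with sums of 277 and 373 in KSP-positive cells and 1315 and 2717 in KSP-negative cells. Of 7 endoderm genes 2 fell, Foxa2 and Ttr, and 0 rose, with a median log2 difference of -1.60. Of the 7, 5 had differences below 0 and 2 above, Gata6 (1.13, without overlap, adjusted p = 0.161 from limma) and Gata4 (0.11). The sums of the 7 genes were 12760 and 6847 in KSP-positive cells and 18580 and 18780 in KSP-negative cells. Of 7 nephron progenitor genes, 6 were over the filter and none of these passed the test (1 lower and 0 higher at an unadjusted p under 0.05 from limma). Their median was -0.63, and that of all 7 was -0.34. Osr1 lay under the filter and was not tested. It had signals of 52.4 and 61.65 in KSP-positive cells and 14.3 and 18.4 in KSP-negative cells, higher without overlap. The sums of the 7 genes were 676 and 707 in KSP-positive cells and 974 and 1279 in KSP-negative cells. Of 10 epithelial genes 7 fell, with sums of 8334 and 10380 in KSP-positive cells and 23130 and 29180 in KSP-negative cells. Of 12 macrophage genes 10 rose, with sums of 22160 and 10110 in KSP-positive cells and 1630 and 1547 in KSP-negative cells. Of 12 mesenchymal genes 6 rose, with sums of 87780 and 63720 in KSP-positive cells and 40150 and 25720 in KSP-negative cells. Bright genes weigh most in such sums. Col3a1, Vim and Col1a2 were the brightest mesenchymal genes on every array, and none of them passed the test. Krt8 and Krt18, which did not pass either, made up 3062 and 3114 of the epithelial sum of 8334 in KSP-positive replicate 1. Gsc of the primitive streak list was at the floor in both KSP-positive arrays, C1qa and Aif1 of the macrophage list were at the floor in both KSP-negative arrays, and no endoderm, nephron progenitor, epithelial or mesenchymal gene was at the floor in both arrays of a fraction. The part of these cell types in the differences of the FGF genes was not tested, and in bulk samples fewer cells of a type and less RNA per cell cannot be told apart.

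The cells had been dissociated with enzymes before the sort, which can itself switch on immediate early genes, early Erk targets among them. None of 11 dissociation and immediate early genes passed the test (2 higher, Egr2 and Junb, and 0 lower at an unadjusted p under 0.05 from limma). Their median log2 difference was 0.45, with 10 above 0 and 1 below. The fractions did not overlap for 6 that were higher (24.4% of all genes tested) and 0 that were lower (24.6%). Egr1, a direct Erk target, had signals of 10250 and 8063 in KSP-positive cells and 7450 and 5935 in KSP-negative cells, without overlap. Fos, another, overlapped between the fractions (log2 difference 0.14). The actin signal at the 3' end over that at the 5' end, a measure of RNA integrity, was 2.92 and 1.80 in KSP-positive cells and 1.79 and 3.55 in KSP-negative cells, so that the lower ratios fell on KSP-positive replicate 2 and KSP-negative replicate 1. The part of the dissociation and of RNA integrity in the differences of the FGF genes was not tested.

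**Figure D4:**
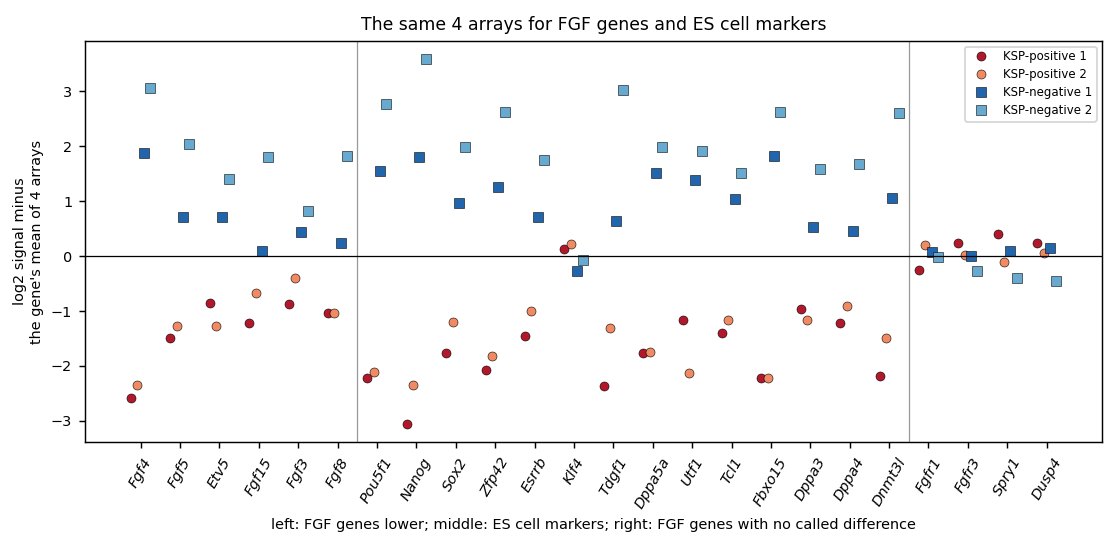
Log2 signal minus the mean of the gene over the 4 arrays (vertical axis) for 6 FGF genes with lower signals in KSP-positive cells (Fgf8 among them was not tested), 14 markers of undifferentiated ES cells and 4 FGF genes with no called difference (horizontal axis), where circles are KSP-positive arrays and squares KSP-negative arrays. For the lower FGF genes and 13 of the 14 markers both circles lie below both squares and KSP-negative replicate 2 is on top, while Fgfr1, Fgfr3, Spry1 and Dusp4 stay near 0. These 4 were picked from the 21 genes that passed no test, and others of the 21 differed more, such as Dusp6 (-1.10), Fgf22 (-0.99) and Fgf11 (0.98).

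Of 45 other genes of the pathway on the array, 44 passed the filter, and of these 1 fell, 43 passed in neither direction and none rose, where 1.65% of all genes tested fell and 1.84% rose. At an unadjusted p under 0.05 from limma, 4 were lower (8.72% of all genes tested) and 2 were higher. Dusp9, a phosphatase that holds Erk activity down in ES cells, had signals of 156 and 280.5 in KSP-positive cells and 624 and 968 in KSP-negative cells. Its log2 difference was -1.89 (95% confidence interval -2.80 to -0.98, adjusted p = 0.0339 from limma). Dusp9 lost the call when KSP-positive replicate 1 (adjusted p = 0.145) or KSP-negative replicate 2 (0.206) was left out, when its probe sets were averaged (0.0671) and when the variance was moderated with no intensity trend (0.0641).

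Il17rd, a membrane inhibitor of FGF receptors, had signals of 327 and 746 in KSP-positive cells and 635 and 3146 in KSP-negative cells, which overlapped (log2 difference -1.52, adjusted p = 0.252 from limma). Il17rd is named after its values were seen, because its call changed: the difference was -2.11 (adjusted p = 0.0215) with KSP-positive replicate 2 left out and -2.67 (adjusted p = 0.012) with KSP-negative replicate 1 left out, against -0.36 with KSP-negative replicate 2 left out. Klb, the co-receptor of endocrine FGFs, had 61.0 and 60.2 in KSP-positive cells and 145 and 192 in KSP-negative cells, without overlap (log2 difference -1.46, adjusted p = 0.0934). Dusp14, another phosphatase, had 19.7 and 29.4 in KSP-positive cells and 94.3 and 65.9 in KSP-negative cells (log2 difference -1.71, adjusted p = 0.119). Dusp14 passed the filter through KSP-negative cells alone, and its difference was -1.08 (adjusted p = 0.202) with the floor raised to the 40th percentile and -1.80 (adjusted p = 0.0493) with the deposited values left unscaled.

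On the higher side, Hs6st2, which adds sulfate groups to heparan sulfate, had signals of 3962 and 2139 in KSP-positive cells and 1527 and 988 in KSP-negative cells. The fractions did not overlap, and the log2 difference was 1.25 (adjusted p = 0.123 from limma). With single arrays left out the difference of Hs6st2 ran from 0.80 (adjusted p = 0.658, KSP-positive replicate 1 left out) to 1.69 (adjusted p = 0.0359, KSP-positive replicate 2 left out). Ksr1, a scaffold for Raf, Mek and Erk, had 401 and 256.5 in KSP-positive cells and 184 and 135 in KSP-negative cells (log2 difference 1.02, adjusted p = 0.205). The 11 adaptors and exchange factors lay between -0.70 and 0.31 with none called, and the median of the 44 genes was -0.05, against -0.03 over all genes tested.

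**Figure D5:**
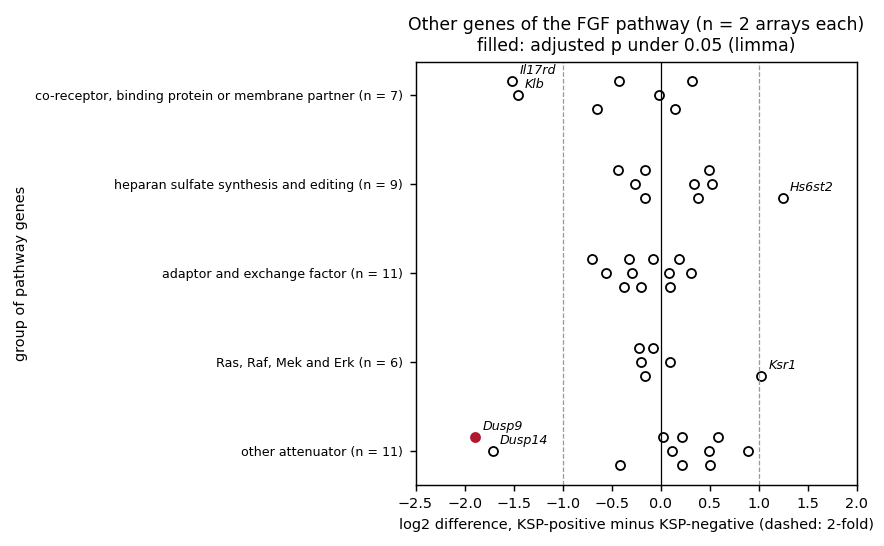
Log2 signal of KSP-positive minus that of KSP-negative cells (horizontal axis, 2 arrays per fraction) of 44 other FGF pathway genes in 5 groups (vertical axis), with names for those over 2-fold. Dusp9 is the filled point with an adjusted p under 0.05, at -1.89, and most of the others lie within the dashed 2-fold lines.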

How the data were processed

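Total RNA of 2 KSP-positive and 2 KSP-negative samples was labelled with biotin by a two-cycle kit and hybridized to Affymetrix mouse genome arrays. The deposited values are linear signal intensities made by the authors with MAS5, 1 per probe set and array; the GeneSpring setting and the scaling target are not given in the sources used here. Of 45037 probe sets (64 controls were left out), 34945 carry 1 gene, 932 several and 9160 none in the platform annotation, and symbols were updated through RefSeq.

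The 75th percentiles of the arrays were set equal, a floor was placed at the 20th percentile of the scaled values, and log2 was taken. The filter on the mean was the 40th percentile, which 27022 probe sets passed, and the brightest stood for its gene (12849 genes). R 4.3.3 with limma 3.58.1 tested the difference of the fractions, moderating variances along the signal, and p-values were adjusted over all genes tested (Benjamini-Hochberg). The scripts were tested on simulated data. With 2 arrays a fraction an exact permutation test cannot go below a two-sided p of 0.333 and was not used. The number of arrays limits the precision, and nothing ties a replicate number to an experiment, so p measures the spread between these samples only.

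Every member is accounted for. Full values were given for members that passed the test, that were over 2-fold without overlap, or whose call changed under an alternative. For the pathway list, genes past the test or over 2-fold without overlap were named. The members and lists were chosen with earlier results of these data known. Alternatives were unscaled values, quantile normalization, 2 other floors, 2 other filters, 2 other probe set rules, 2 other moderations, a block for the replicate number, the methods' t-test, and each array left out in turn with the genes tested kept. Figures were drawn with matplotlib 3.10.9.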

Additional observations from a re-analysis of the deposited data

How the results depend on the processing

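Over all settings run, the one reported included, Fgf4 passed the test in 14 of 16, Fgf5 in 14 of 17 and Etv5 in 13 of 17. The count of FGF genes that fell, 3, was 0 with no filter (8 at an unadjusted p under 0.05 from limma, with 0 of 18193 genes called) and 0 with the methods' t-test (2 at an unadjusted p under 0.05, Fgf4 and Etv5, and 0 of all genes after adjustment). With single arrays left out it ran from 1 (without KSP-negative replicate 2) to 5. With the filter at the 60th percentile Fgf4 was not among the genes tested. No FGF gene was more than 2-fold higher and 6 were more than 2-fold lower, against 1 higher with quantile normalization, 1 higher and 11 lower with no filter, and 0 to 3 higher with single arrays left out. The median of the FGF genes, -0.07, was -0.41 with every probe set tested alone and ran from -0.27 to 0.20 with single arrays left out.

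The pathway count of 1 lower was 2 with unscaled values, and 0 with no filter (3 at an unadjusted p under 0.05), with probe sets averaged, with every probe set alone, without the intensity trend and with the methods' t-test (2 at an unadjusted p under 0.05). With single arrays left out it ran from 0 to 2, and the count of higher genes from 0 to 1. Directions turned for genes that passed no test. These were Fgfrl1 with unscaled values (-0.060), Spry2 with its probe sets averaged (-0.21) and with every probe set alone (-0.71), and the following with single arrays left out. The difference of Dusp4 then ran from -0.0050 to 0.59, that of Fgf22 from -2.23 to 0.26, that of Fgf9 from -0.28 to 0.14, that of Fgfr1 from -0.29 to 0.18, that of Fgfrl1 from -0.30 to 0.37, that of Spry2 from -0.10 to 0.69, that of Spred1 from -0.011 to 0.71 and that of Spred2 from -0.031 to 0.96. Except where the text gives a value, the cause was not tested.

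With the replicate number as a block, 4 FGF genes fell (Fgf15 joined, adjusted p = 0.0157 from limma), and the pathway counts were 1 higher (Hs6st2, 0.0268) and 2 lower (Il17rd joined, 0.0131). Over all genes the block raised the calls to 571 higher and 560 lower, from 236 and 212. The replicate 1 minus replicate 2 differences of the fractions had a correlation of 0.17 across genes, and with 2 pairs and no source for the pairing the samples share only a number.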
